A study of Homo sapiens with 27 samples.

Results

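The genes described here encode 10 enzymes of glycolysis and lactate formation, GPI, ALDOA, TPI1, GAPDH, PGK1, PGAM1, ENO1, PKM, LDHA and LDHB, in RM82 cells. They were chosen by gene symbol. All 10 genes were counted and tested, among 18776 genes with a count and 6344 that were tested. They had 119 transcripts listed with a count, among 93530 transcript identifiers in all, and 45 of the 119 were abundant enough to be tested, among 7840. The other 74 held 2.29% of the counts on these genes, at most 58 counts each over the 6 libraries.

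RM82 is an established Ewing's sarcoma cell line. The study treated it for a day with SGC-CLK-1, a chemical inhibitor of the CDC2-like kinases (CLK), which phosphorylate SR splicing factors, or with dimethylsulfoxide (DMSO), the solvent used as the negative control. The dose is not given in the sources used here. Each group had 3 libraries of full-length cDNA that carried unique molecular identifiers (UMIs) and were sequenced on an ONT PromethION. The study states in general that its experiments were repeated independently, but the labels do not say whether the 3 libraries of a group came from separate cultures, so p-values measure the spread between these libraries, which may be technical. The deposited counts, summed over all transcripts of a library, came to 416352, 523456 and 372876 in DMSO, and 666702, 362826 and 373004 in SGC-CLK-1. Among 8 genes fixed as marks of Ewing's sarcoma, 6 were counted. CCND1 was the most abundant of them, CD99 lay between 106 and 217 counts per 1000000 (CPM) in the 6 libraries, and no count was listed for NKX2-2 and FLI1. The 3 that were tested, CD99, STEAP1 and CCND1, had log2 fold changes (SGC-CLK-1 over DMSO) of -0.50, -0.30 and -0.45. None of the 3 was called by edgeR after adjustment. For CCND1, every SGC-CLK-1 library lay below every DMSO library, beside 9.71% of all tested genes. Of 8 T cell markers, 4 were counted, and CD3D, CD3E, CD2 and CD28 had no count. The summed count was 6, 8 and 6 in DMSO, all on CD3G. It was 5, 2 and 2 in SGC-CLK-1, of which CD3G held 2, 1 and 1. Of 8 plasma cell markers, 4 were counted, nearly all on CD38, with a summed count of 33, 46 and 22 in DMSO and 55, 29 and 30 in SGC-CLK-1, and SDC1, TNFRSF17, IRF4 and MZB1 had none.

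Glycolysis splits glucose into pyruvate and gains ATP and NADH on the way. GPI, ALDOA and TPI1 act in the preparatory part, in which sugar phosphates are rearranged and cleaved. GAPDH, PGK1, PGAM1, ENO1 and PKM carry out the steps from glyceraldehyde 3-phosphate to pyruvate, and lactate dehydrogenase, built from LDHA and LDHB subunits, interconverts pyruvate and lactate. These genes are abundantly expressed in most cells and more so in many tumours. PKM is also a textbook case of alternative splicing. Its transcripts hold 1 of a pair of mutually exclusive exons, which give pyruvate kinase M1, typical of muscle and brain, or M2, typical of dividing cells, and PTBP1, HNRNPA1, HNRNPA2B1 and SRSF3 are known to act on this choice.

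The pair of exons is shown because it defines the isoform classes counted below. Both lie on the minus strand of chromosome 15 in GRCh38 and have 167 bases, the M1 exon at chr15:72203022-72203188 and the M2 exon at chr15:72202454-72202620. They are coding exons in GENCODE release 44. Capitals mark the 62 positions at which the exons differ when set side by side without gaps, an identity of 62.9%.

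M1 exon: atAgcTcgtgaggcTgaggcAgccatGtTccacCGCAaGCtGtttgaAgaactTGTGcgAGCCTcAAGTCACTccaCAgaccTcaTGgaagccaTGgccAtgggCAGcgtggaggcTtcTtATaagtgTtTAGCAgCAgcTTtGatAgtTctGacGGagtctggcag
M2 exon: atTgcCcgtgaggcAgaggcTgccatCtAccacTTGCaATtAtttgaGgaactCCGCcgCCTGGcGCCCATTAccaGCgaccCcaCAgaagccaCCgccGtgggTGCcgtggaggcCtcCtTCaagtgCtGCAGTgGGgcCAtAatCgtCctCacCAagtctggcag

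Transcripts of 1 gene had counts that went together. The GAPDH transcripts ENST00000229239 and ENST00000396861 had 406 and 392, 531 and 520, and 323 and 313 counts in the DMSO libraries. The study mapped reads to transcripts with options that report up to 3 secondary placements beside the first, and how these were counted is not given in the sources used here. The sum over a gene's transcripts was 3.87 times the count of its most abundant transcript for GAPDH, 3.86 times for ALDOA, 3.47 times for ENO1 and 3.19 times for PKM, but 1.07 times for PGAM1. A gene sum may therefore count a molecule more than once, so gene sums were compared between libraries and not between genes. To see which transcripts share reads, annotated sequences were mapped with the study's settings to the transcripts listed in the files. The full sequence of the most abundant M2 transcript of PKM was placed on 4 transcripts, 2 with the M2 exon and 2 with the M1 exon, whereas the full M1 transcript was placed on 2 transcripts, both with the M1 exon. In each of the most abundant M1 and M2 transcripts, 910 bases follow the exon that tells them apart. The last 500 bases of the M1 transcript were placed on 1 transcript with the M1 exon, 2 with the M2 exon and 1 with neither. Shortened reads from either isoform could thus add to both classes. The last 500 bases of ALDOA were also placed on a transcript of a second annotated gene, ENSG00000285043, so ALDOA values are uncertain for this reason.

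Of the 10 glycolysis genes, 9 had a lower mean level in SGC-CLK-1 than in DMSO and 1, PKM, a higher one. None passed an adjusted p of 0.05 in the quasi-likelihood test of edgeR, adjusted by Benjamini-Hochberg over all 6344 genes, where 0.236% of genes were called, and the smallest adjusted p among the 10 was 0.145. With an unadjusted p under 0.05, edgeR called 3 of the 10, TPI1, LDHB and GAPDH, all lower in SGC-CLK-1, beside 6.97% of all genes called in that direction. By DESeq2, which left 2395 genes after its own filter and called 5.09% of them, the same 3 genes passed an adjusted p of 0.05. When DESeq2 was fitted to the 6344 genes alone and without that filter, a setting chosen after seeing the data that changes both the genes fitted and the filter, it called 101 genes (1.59%) and none of the 10, with adjusted p of 0.0736 for TPI1, 0.0807 for LDHB and 0.204 for GAPDH. The levels of the groups did not overlap in 4 of the 10 genes, the 3 named and GPI, each with SGC-CLK-1 lower, beside 9.71% of all genes. The median log2 fold change was -0.24 over the 10 genes, or -0.405 without the first SGC-CLK-1 library, and -0.00 over all genes, of which 50.1% lay below 0. All transcripts of the 10 genes took 1.38%, 1.49% and 1.19% of the counts in the DMSO libraries and 1.25%, 0.972% and 1.12% in the SGC-CLK-1 libraries, ranges that overlap. In bulk samples, fewer cells of a kind and less RNA per cell cannot be told apart.

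**Figure D1:**
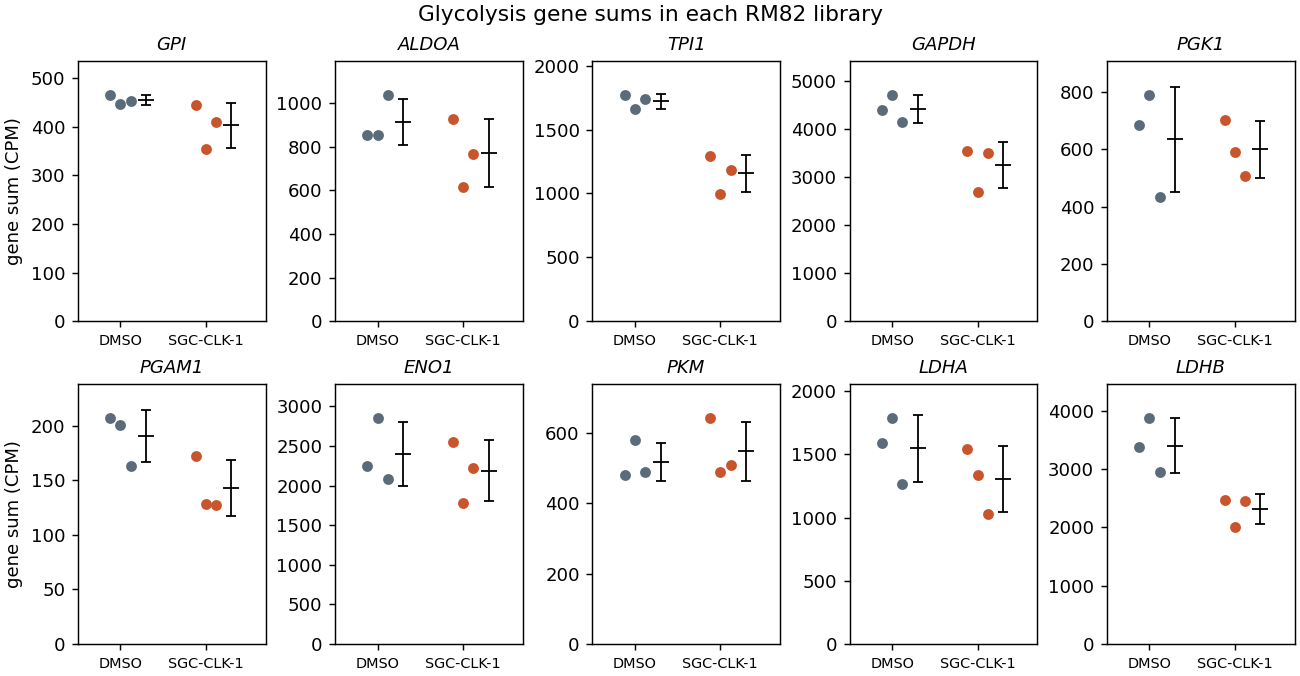
Gene sums of the 10 glycolysis genes in CPM (vertical axes from 0, each with its own scale) in the 3 DMSO (grey) and 3 SGC-CLK-1 (orange) libraries. Each point is a library, and the bar beside the points gives the mean and SD. The groups are apart for TPI1, GAPDH, LDHB and, narrowly, GPI.

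In the preparatory part of the pathway, TPI1 differed most. TPI1, the triose phosphate isomerase that interconverts the products of aldolase (chr12:6867119-6870948, plus strand, GRCh38), had 1770, 1659 and 1736 CPM in DMSO and 1290, 1000 and 1184 CPM in SGC-CLK-1. CPM here was computed over the counts on tested genes after TMM scaling. Every SGC-CLK-1 library lay below every DMSO library, and the gap between the groups was larger than the range within either. The log2 fold change was -0.57 (SE 0.18, 95% interval -0.95 to -0.19), an estimate 32.6% below DMSO, with an unadjusted p of 0.0056 and an adjusted p of 0.145 by edgeR. GPI, the glucose 6-phosphate isomerase, had 465, 446 and 453 CPM in DMSO and 444, 353 and 410 CPM in SGC-CLK-1. Its highest SGC-CLK-1 library lay just below the lowest DMSO library, and the log2 fold change of -0.17 (SE 0.19) had an adjusted p of 0.755 by edgeR. ALDOA, the aldolase that cleaves fructose 1,6-bisphosphate, had 854, 851 and 1036 CPM in DMSO and 928, 616 and 765 CPM in SGC-CLK-1. The groups overlapped, with a log2 fold change of -0.24 (SE 0.20).

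GAPDH had the lowest estimate among the genes of the later steps. GAPDH, which makes 1,3-bisphosphoglycerate and NADH (chr12:6534512-6538374, plus strand), had 4414, 4716 and 4148 CPM in DMSO and 3559, 2697 and 3505 CPM in SGC-CLK-1. The SGC-CLK-1 libraries all lay below the DMSO libraries, with the second SGC-CLK-1 library lowest. The log2 fold change was -0.44 (SE 0.17, 95% interval -0.81 to -0.08), an estimate 26.5% below DMSO, with an unadjusted p of 0.0215 and an adjusted p of 0.257 by edgeR. PGK1, the phosphoglycerate kinase that gains the first ATP, had 683, 789 and 433 CPM in DMSO and 703, 591 and 507 CPM in SGC-CLK-1. The third DMSO library was the lowest of all 6 and the second the highest, and the log2 fold change of -0.08 (SE 0.23) became 0.10 without the second DMSO library and 0.0081 without the third SGC-CLK-1 library. PGAM1, the mutase that moves the phosphate group of phosphoglycerate, was the least counted of the 10, with 207, 200 and 163 CPM in DMSO and 172, 128 and 127 CPM in SGC-CLK-1. Only the first SGC-CLK-1 library overlapped the DMSO group, and the log2 fold change was -0.40 (SE 0.24, 95% interval -0.93 to 0.12). ENO1, the enolase, had 2249, 2858 and 2082 CPM in DMSO and 2551, 1784 and 2225 CPM in SGC-CLK-1. The groups overlapped widely, with a log2 fold change of -0.13 (SE 0.19) that became 0.014 without the second DMSO library.

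PKM was the single gene of the 10 with an estimate above 0. PKM (chr15:72199029-72231819, minus strand), whose enzyme makes pyruvate and ATP, had 482, 580 and 490 CPM in DMSO and 644, 491 and 510 CPM in SGC-CLK-1. The groups overlapped, and the first SGC-CLK-1 library was the highest. The log2 fold change of 0.09 (SE 0.20, 95% interval -0.34 to 0.51) had an adjusted p of 0.891 by edgeR and was -0.059 without that first library. The interval spans a decrease and an increase, so the data leave a modest change in either direction possible.

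The subunits of lactate dehydrogenase had different estimates. LDHB, the subunit predominant in heart (chr12:21635342-21757857, minus strand), had 3375, 3886 and 2952 CPM in DMSO and 2472, 2015 and 2455 CPM in SGC-CLK-1. All SGC-CLK-1 libraries lay below all DMSO libraries. The log2 fold change was -0.56 (SE 0.18, 95% interval -0.94 to -0.18), an estimate 32.0% below DMSO, with an unadjusted p of 0.0069 and an adjusted p of 0.158 by edgeR. LDHA, the subunit predominant in skeletal muscle, had 1588, 1791 and 1263 CPM in DMSO and 1542, 1341 and 1026 CPM in SGC-CLK-1. The groups overlapped, with a log2 fold change of -0.25 (SE 0.20, 95% interval -0.68 to 0.19). Whether LDHA and LDHB differ in their change was not tested.

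**Figure D2:**
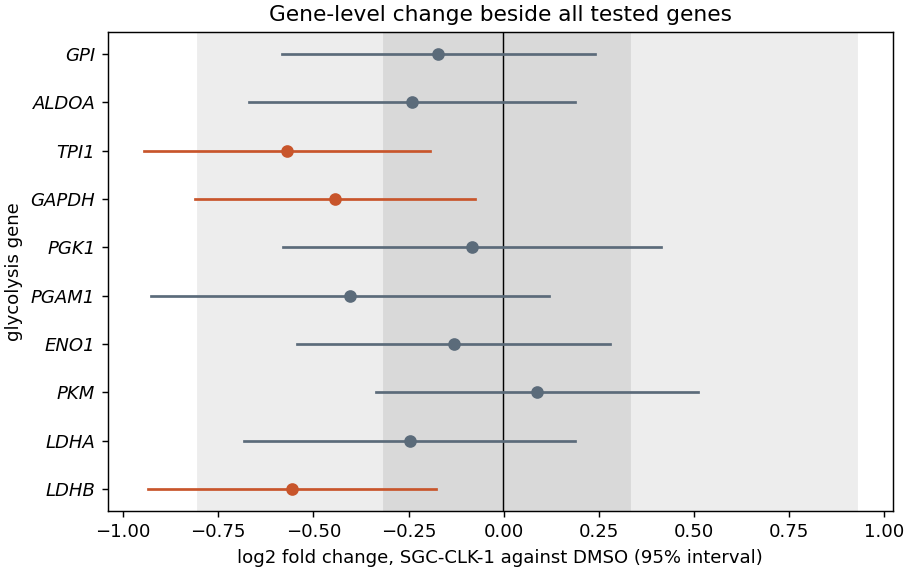
Log2 fold change of each glycolysis gene (horizontal axis, point) with its 95% interval (line), in the order of the pathway from top to bottom. Orange marks an unadjusted edgeR p under 0.05. The dark and light bands hold the middle 50% and 90% of 6344 tested genes. TPI1, GAPDH and LDHB lie below the dark band with intervals that end below 0, and all 10 points lie inside the light band.

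Levels of different genes were compared per kilobase of the most abundant transcript, which leaves out counts on the other transcripts of the gene. On this scale, in CPM of all counts per kilobase, GAPDH had 741 ± 59.7 (SD, n = 3) and LDHB 670 ± 124 in DMSO, and these neighbours overlapped. ENO1 (318 ± 65.5), LDHA (313 ± 86.5) and TPI1 (287 ± 13.0) followed and overlapped each other. ALDOA had 134 ± 15.9 and PGAM1 82.4 ± 12.1 CPM per kilobase, with no overlap between them or with the genes above. PKM (56.1 ± 14.7), PGK1 (52.8 ± 17.2) and GPI (42.4 ± 1.65) stood last in DMSO and overlapped, and the highest PKM library, at 71.3, lay above the lowest PGAM1 library, at 68.5. In SGC-CLK-1 the first and second places were the same, GAPDH with 575 ± 89.5 and LDHB with 476 ± 51.4 CPM per kilobase. PKM, with 67.6 ± 9.25, then stood just above PGAM1, with 65.0 ± 10.8, a difference within their spread. The order depends on the division by length, which a library with 1 read per full-length molecule need not call for. In CPM of tested transcripts, without that division, the same transcripts of PGK1 (366 ± 121) and GPI (252 ± 8.80) stood above those of PGAM1 (214 ± 31.8) and PKM (187 ± 50.0) in DMSO. PGK1 also stood above ALDOA (287 ± 32.9), and LDHA (1009.5 ± 283) above ENO1 (817 ± 173). The DMSO libraries of PGK1 overlapped those of ALDOA and PKM, and the libraries of LDHA overlapped those of ENO1. The ratio of LDHB to LDHA in these levels is not one of subunits in the enzyme, since protein was not measured.

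Transcripts of 1000 to under 1500 annotated bases had in general lower counts in SGC-CLK-1, and 15 of the 45 tested transcripts of the glycolysis genes are of this length. Of all 587 tested transcripts in this range, 75.8% had a log2 fold change below 0, with a median of -0.28. The 15 of the glycolysis genes had a median of -0.35, and 12 of them lay below 0. Of all 731 tested transcripts under 1000 bases, 52.9% lay below 0, with a median of -0.033, whereas the 4 of the glycolysis genes there were all below 0, with a median of -0.70. Of all 1699 tested transcripts of 1500 to under 2500 bases, 56.8% lay below 0, with a median of -0.063. The 18 of the glycolysis genes there had a median of -0.16, and 14 of them lay below 0. Of all 4407 tested transcripts of 2500 bases or more, 44% lay below 0, with a median of 0.06. The 8 of the glycolysis genes there had a median of -0.03. Across transcripts, the Spearman correlation of length and log2 fold change was 0.66 over the 45 of the glycolysis genes and 0.17 over 7424 in all. These transcripts share libraries and sequence, and the correlation is a description. The mean annotated length of all counted transcripts, weighted by count, was 3678, 3840 and 3639 bases in the DMSO libraries and 3777, 3921 and 3907 bases in the SGC-CLK-1 libraries. The part of length in the lower values of TPI1, GAPDH and LDHB was not tested. The 10 genes also have high levels. Of 2446 genes with a mean of at least 100 CPM, 55.2% had a log2 fold change below 0, and in 14.4% the SGC-CLK-1 libraries all lay below the DMSO libraries. With an unadjusted p under 0.05, edgeR called 11.8% of these genes lower in SGC-CLK-1. These ranges of length and level were set after the values had been seen.

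**Figure D3:**
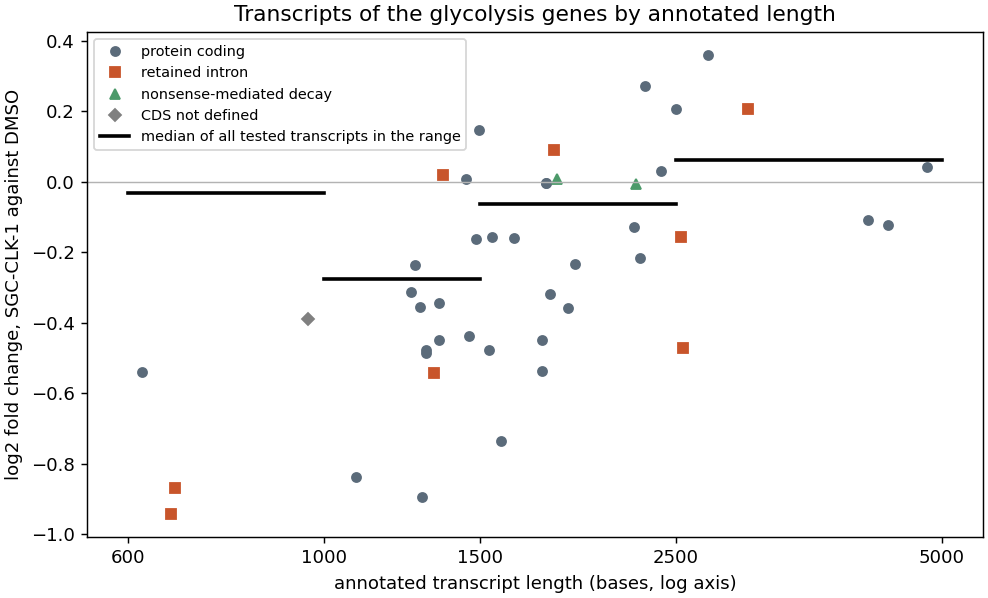
Log2 fold change of the 45 tested transcripts of the glycolysis genes (vertical axis) by annotated length in bases (log axis). Symbols give the annotated class, and black lines the median of all tested transcripts in the same range of length. The black line is lowest, at -0.28, from 1000 to under 1500 bases, and the 4 points under 1000 bases lie below their line at -0.033.

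At the level of transcripts, 2 of the 45 passed an adjusted p of 0.05 by edgeR, both lower, beside 3.95% of all tested transcripts and 2.1% called lower. In all, 34 of the 45 were below 0 and 11 above, with a median log2 fold change of -0.23, beside 50.5% of all transcripts below 0. DESeq2 gave an adjusted p to 44 of the 45 and called 1 of these, the GAPDH transcript described next, beside 1.77% of all transcripts to which it gave one. Of the 45, 13 had an unadjusted p under 0.05 by edgeR, all of them lower, beside 9.11% of all transcripts called in that direction. The groups did not overlap in 17 with SGC-CLK-1 lower, beside 11.2% of all transcripts, and in 1 with SGC-CLK-1 higher, beside 11.7%. These transcripts are not independent, since those of a gene share sequence.

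The first transcript that fell was GAPDH ENST00000619601, a protein-coding transcript of 7 exons and 1086 bases that starts further downstream than the other 4 abundant ones (chr12:6536605-6538374). It had 424, 333 and 458 CPM of tested transcripts in DMSO and 264, 195 and 210 CPM in SGC-CLK-1, with a gap between the groups. Its log2 fold change was -0.84 (SE 0.21), with an adjusted p of 0.0243 by edgeR. The full-length GAPDH transcript ENST00000229239, with 9 exons and 1285 bases, had 1399, 1472 and 1244 CPM in DMSO and 1168, 874 and 1171 CPM in SGC-CLK-1. The groups did not overlap here either, and the log2 fold change of -0.35 (SE 0.19) had an adjusted p of 0.339 by edgeR. When mapped with the study's settings, the full sequence of ENST00000229239 was not placed on ENST00000619601, but its last 800 and its last 500 bases were.

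The second was LDHB ENST00000470985, which is annotated as retaining an intron, with 3 exons and 678 bases at the 3′ end of the gene (chr12:21635342-21638538). It had 214, 177 and 239 CPM in DMSO and 135, 103 and 97.3 CPM in SGC-CLK-1, again without overlap. Its log2 fold change was -0.87 (SE 0.24), with an adjusted p of 0.0345 by edgeR. The main protein-coding transcript ENST00000350669, with 8 exons, had 1281, 1485 and 1009 CPM in DMSO and 957, 783 and 957 CPM in SGC-CLK-1, and its log2 fold change of -0.49 (SE 0.20) had an adjusted p of 0.178 by edgeR. The last 500 bases of ENST00000350669 were placed on ENST00000470985 and on 3 other transcripts, although the full sequence was not placed on it, so that a count on ENST00000470985 can come from a shortened read of a spliced transcript. ENST00000350669 itself was not among these placements. A placement of such an end thus does not tell which transcript the sequence came from. Neither call held under every alternative. Without the second SGC-CLK-1 library, the adjusted p by edgeR was 0.194 for the GAPDH transcript and 0.21 for the LDHB transcript, and leaving out DMSO replicate 1 or 3 or SGC-CLK-1 replicate 3 also took both past 0.05. By DESeq2 the LDHB transcript had an adjusted p of 0.0836.

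By annotated class, 27 of 34 protein-coding transcripts of the glycolysis genes lay below 0, with a median log2 fold change of -0.24, and 5 of 8 transcripts with a retained intron, with a median of -0.31. Over all genes, 50.5% of 5758 protein-coding transcripts and 51.8% of 645 with a retained intron lay below 0. By edgeR, 106 of these protein-coding transcripts were called lower and 104 higher. Of those with a retained intron, 33 were called lower and 10 higher, beside 2.1% of all tested transcripts called lower. Whether the classes differ was not tested. Transcripts with a retained intron took 9.31%, 9.50% and 9.23% of the matched counts in DMSO and 9.44%, 9.47% and 9.41% in SGC-CLK-1, ranges that overlap. The most abundant transcripts of the other genes gave log2 fold changes of -0.44 (SE 0.19) for TPI1 ENST00000613953, -0.32 (SE 0.23) for PGAM1 ENST00000334828, -0.16 (SE 0.22) for ALDOA ENST00000643777, -0.13 (SE 0.21) for LDHA ENST00000422447 and -0.11 (SE 0.21) for GPI ENST00000356487. For ENO1 ENST00000234590 the value was -0.00 (SE 0.20) and for PGK1 ENST00000373316 0.04 (SE 0.22). None of these 7 passed an adjusted p of 0.05 by edgeR.

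For PKM, the question was whether the inhibitor of splicing kinases moved the balance of M1 and M2. Of 21 PKM transcripts with a count, 5 hold the M1 exon, 3 the M2 exon and 13 neither. Counts on M1 transcripts were 52, 62 and 50 in DMSO and 115, 50 and 46 in SGC-CLK-1, and counts on M2 transcripts were 99, 162 and 66 in DMSO and 195, 82 and 96 in SGC-CLK-1. The M1 share of M1 and M2 counts was 34.4% (95% Wilson interval 27.3 to 42.3), 27.7% (22.2 to 33.9) and 43.1% (34.5 to 52.2) in the DMSO libraries. In the SGC-CLK-1 libraries it was 37.1% (31.9 to 42.6), 37.9% (30.1 to 46.4) and 32.4% (25.2 to 40.5). These intervals cover counting error only and treat counts as independent molecules, although the full M2 sequence was placed on M1 transcripts too. The SGC-CLK-1 libraries all lay within the range of the DMSO libraries. The mean share was 35.8% ± 2.97 (SD, n = 3) in SGC-CLK-1 and 35.1% ± 7.73 in DMSO, a difference of 0.717 percentage points with p = 1 in an exact two-sided permutation test, which at 3 against 3 cannot go below 0.1. It became -2.98 points without the second DMSO library, 4.73 points without the third DMSO library and -0.327 points without the second SGC-CLK-1 library. No shift in the share could thus pass 0.05 in this test, whatever its size.

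**Figure D4:**
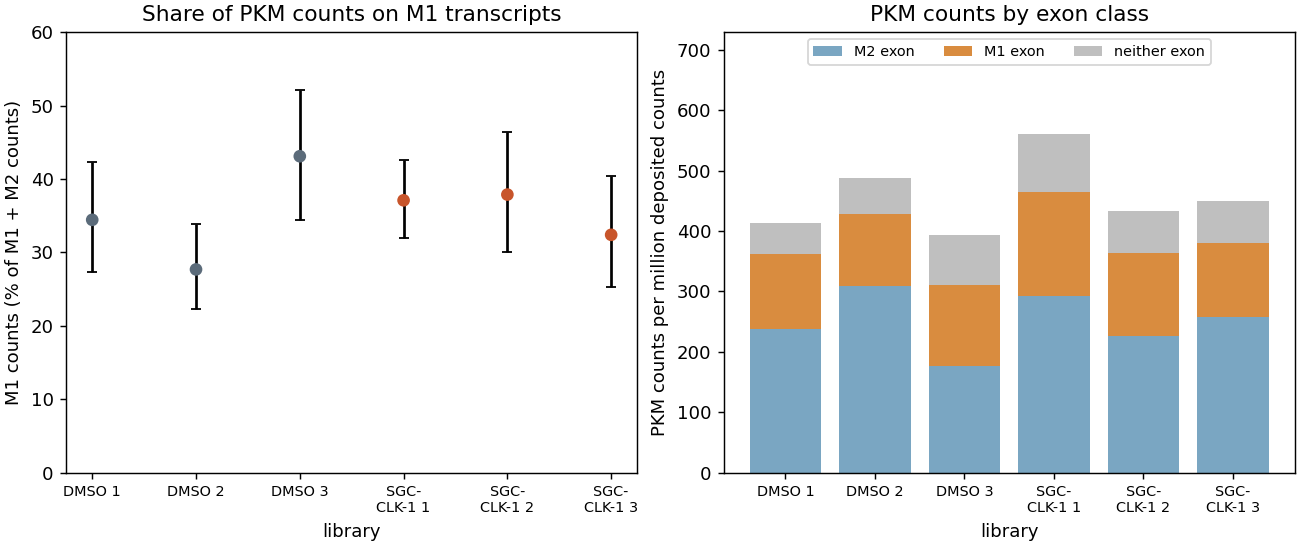
Left, share of PKM counts on M1 transcripts among those on M1 or M2 transcripts (percent, vertical axis) in each library, with 95% Wilson intervals. Right, PKM counts in CPM of all deposited counts in each library, stacked by exon class. The SGC-CLK-1 shares, 32.4% to 37.9%, lie inside the DMSO range of 27.7% to 43.1%, and M2 counts exceed M1 counts in all 6 libraries.

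Of the 21 PKM transcripts, 6 were tested. The main M2 transcript ENST00000335181 had 183, 238 and 139 CPM in DMSO and 253, 191 and 233 CPM in SGC-CLK-1, and its groups overlapped (log2 fold change 0.27, SE 0.23). The main M1 transcript ENST00000319622 had 110, 91.5 and 92.4 CPM in DMSO and 137, 123 and 113 CPM in SGC-CLK-1. It was the only tested transcript of the 45 whose SGC-CLK-1 libraries all lay above the DMSO libraries, and its log2 fold change of 0.36 (SE 0.25, 95% interval -0.15 to 0.87) had an adjusted p of 0.492 by edgeR. Of the other M2 transcripts, ENST00000389093 had a log2 fold change of -0.22 (SE 0.29), and ENST00000567118, annotated for nonsense-mediated decay, one of -0.01 (SE 0.30). The second M1 transcript ENST00000565184 had a log2 fold change of 0.21 (SE 0.30), and ENST00000564440, which retains an intron and holds neither exon, one of 0.21 (SE 0.35). None of the 6 had an adjusted p under 0.05 by edgeR. A test of transcript usage within genes (diffSpliceDGE) could be made for 9 of the 10 genes, all but PGAM1. It called none of the 9, beside 0.277% of 1805 genes at an adjusted p of 0.05, and none had an unadjusted p under 0.05, beside 1.72% of the 1805, the smallest being 0.375 for GAPDH. DESeq2 was not run for usage. The share of 1.72% is below the level of 0.05 itself, so the usage test made few calls on these counts. Reads placed on several transcripts of a gene can also make their counts move together. The absence of a call therefore does not show that usage was unchanged.

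The genes whose levels followed the PKM gene sum most closely over the 6 libraries were ALG8 (Pearson r = 0.96 on log2 CPM), SIN3A (r = 0.957) and COL28A1 (r = 0.945), the highest of 4390 genes with a mean of at least 50 CPM outside the 10. ALG8 had 443, 585 and 490 CPM in DMSO and 739, 509 and 480 CPM in SGC-CLK-1. Like PKM, it was highest in the first SGC-CLK-1 library and second highest in the second DMSO library. The 6 libraries differ in depth, and with 4390 genes compared high values arise readily, so the correlations are given as a description.

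The proteins known to act on the choice of the PKM exon were measured by their transcripts. All 6 of them had log2 fold changes below 0, with a median of -0.34, beside 50.1% of all genes below 0. That of RBM4 was above 0 under several alternatives, given below. None of the 6 passed an adjusted p of 0.05 by edgeR, nor did any of the 5 to which DESeq2 with its own filter gave one. By edgeR, 1 of the 6, lower, had an unadjusted p under 0.05, beside 6.97% of all genes. SRSF3, an SR protein and so of the family that the CLK kinases phosphorylate, had 650, 696 and 763 CPM in DMSO and 517, 444 and 549 CPM in SGC-CLK-1. It was the single gene of the 6 without overlap between groups, beside 9.71% of all genes with SGC-CLK-1 lower, and its log2 fold change of -0.48 (SE 0.19) had an unadjusted p of 0.0226 and an adjusted p of 0.265 by edgeR. The polypyrimidine tract binding proteins PTBP1 and PTBP2 had values of -0.50 (SE 0.35) and -0.54 (SE 0.26), and HNRNPA1 and HNRNPA2B1 of -0.19 (SE 0.18) and -0.21 (SE 0.20). Single libraries moved these values, PTBP1 to -0.27 without the second and -0.81 without the first SGC-CLK-1 library, and HNRNPA2B1 to -0.053 without the first and -0.36 without the third DMSO library. RBM4, an RNA-binding regulator of splicing, had a value of -0.01 (SE 0.24). It was 0.063 with scaling by library size alone, 0.0049 without a filter and 0.035 with at least 10 counts in every library. It was also above 0 without DMSO replicate 2, SGC-CLK-1 replicate 1 or SGC-CLK-1 replicate 2.

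In sum, other enzymes that can catalyse the steps of glycolysis were far less counted than the 10 genes. Of 20 such genes, 14 had a count and 5 were tested, 3 of them below 0 and 2 above. None was called by edgeR or had an unadjusted p under 0.05 by edgeR, and DESeq2 with its own filter gave none of the 5 an adjusted p. No hexokinase passed the filter. HK2, the most abundant, had 22, 10 and 6 counts in DMSO and 19, 8 and 2 in SGC-CLK-1. PFKM, the muscle-type phosphofructokinase and the most abundant of its family, had 92.4, 81.9 and 66.6 CPM in DMSO and 119, 112 and 124 CPM in SGC-CLK-1. Its SGC-CLK-1 libraries all lay above DMSO, opposite to TPI1 and GAPDH, beside 10% of all genes without overlap in that direction. Its log2 fold change of 0.55 (SE 0.28) had an adjusted p of 0.394 by edgeR. In SGC-CLK-1, PFKM was not far less counted than PGAM1, the least counted of the 10, which had 172, 128 and 127 CPM. ENO2, the neuronal enolase, had a log2 fold change of -0.62 (SE 0.45) with overlapping groups, which was -0.28 without the first and -1.12 without the second SGC-CLK-1 library.

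Among 15 genes of glucose, lactate and pyruvate transport and of pyruvate oxidation, 9 were tested. None of the 9 was called by edgeR, nor any of the 4 to which DESeq2 with its own filter gave an adjusted p. DLAT reached the filter's minimum in the SGC-CLK-1 libraries alone, so no fold change or p is given for it. Of the other 8, 4 lay below 0 and 4 above, and BSG had an unadjusted p under 0.05 by edgeR, lower, beside 6.97% of all genes. BSG, the basigin that accompanies lactate transporters to the membrane, had 927, 692 and 723 CPM in DMSO and 603, 634 and 370 CPM in SGC-CLK-1. Its groups did not overlap, beside 9.71% of all genes without overlap and with SGC-CLK-1 lower. Its log2 fold change of -0.54 (SE 0.23) had an unadjusted p of 0.032 and an adjusted p of 0.305 by edgeR. DLAT, a subunit of pyruvate dehydrogenase, had few counts, 8, 6 and 0 in DMSO and 22, 16 and 14 in SGC-CLK-1. SLC2A1, the glucose transporter often high in tumours, had between 1 and 11 counts per library and was not tested, and SLC2A1 was named for this after its counts were seen. Of 8 regulators, 4 were tested. MYC, a transcription factor known to raise glycolytic genes, had 106, 134 and 70.0 CPM in DMSO and 136, 178 and 164 CPM in SGC-CLK-1. HIF1A, which does so in low oxygen, had 72.8, 84.2 and 80.0 CPM in DMSO and 96.5, 96.9 and 143 CPM in SGC-CLK-1. Both were above DMSO in every SGC-CLK-1 library, MYC narrowly, beside 10% of all genes whose groups did not overlap with SGC-CLK-1 higher, with log2 fold changes of 0.59 (SE 0.29) and 0.49 (SE 0.29), and none of the 4 passed an adjusted or an unadjusted p of 0.05 by edgeR. DESeq2 with its own filter gave an adjusted p to 1 of the 4, MYC, which it did not call.

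The pentose phosphate branch, which leaves glycolysis at glucose 6-phosphate, had 7 genes with a count and 5 tested, 4 above 0 and 1 below. None was called by edgeR, and DESeq2 with its own filter gave an adjusted p to 1 of the 5, TKT, which it did not call. By edgeR, 3 of the 5 had an unadjusted p under 0.05, 2 higher and 1 lower, beside 6.89% of all genes higher and 6.97% lower, 13.9% in either direction. TKT, the transketolase, had 86.8, 139 and 110 CPM in DMSO and 279, 178 and 203 CPM in SGC-CLK-1. All SGC-CLK-1 libraries were above all DMSO libraries, beside 10% of all genes. Its log2 fold change of 0.98 (SE 0.27, 95% interval 0.40 to 1.56) had an unadjusted p of 0.0027 and an adjusted p of 0.12 by edgeR. TALDO1, the transaldolase, had 92.4, 66.0 and 93.3 CPM in DMSO and 46.5, 43.7 and 51.6 CPM in SGC-CLK-1. Here all SGC-CLK-1 libraries were below all DMSO libraries, beside 9.71% of all genes. The log2 fold change of TALDO1 was -0.82 (SE 0.33), with an unadjusted p of 0.0272 and an adjusted p of 0.287 by edgeR. These partner enzymes of the non-oxidative branch thus had estimates of opposite sign.

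**Figure D5:**
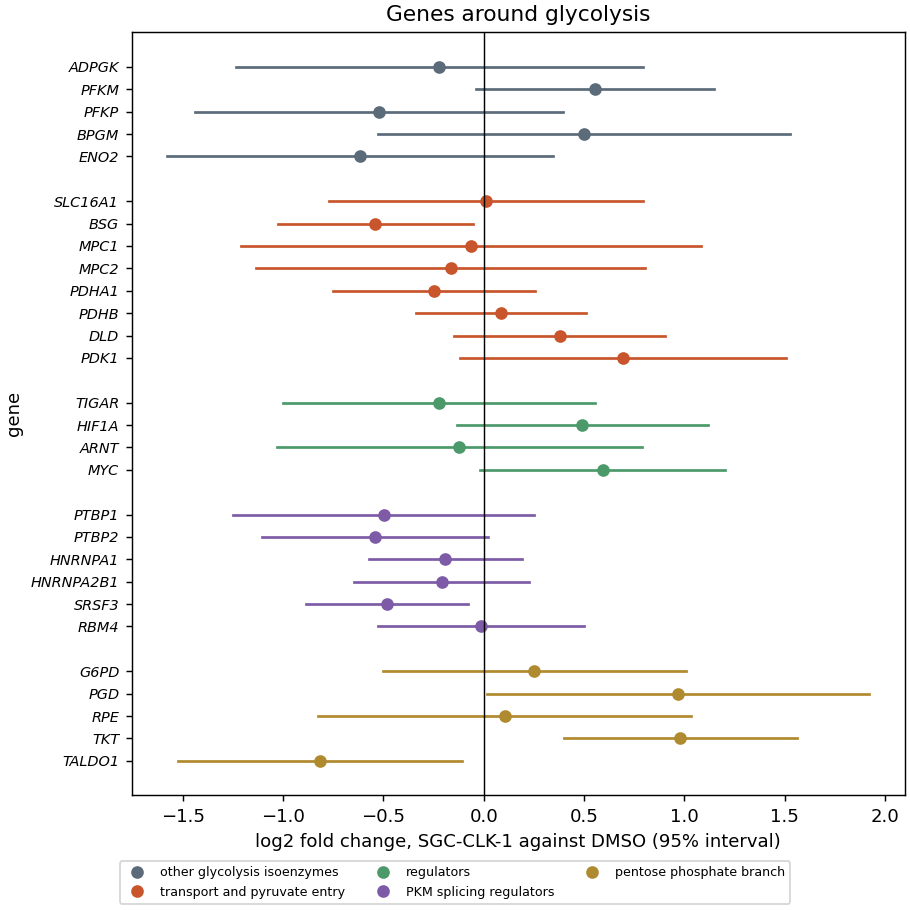
Log2 fold change (horizontal axis, point) with 95% interval (line) of the tested genes around glycolysis other than DLAT, coloured by list. The 6 PKM splicing regulators lie below 0, RBM4 at -0.01 and above 0 under several alternatives. TKT and TALDO1 lie on opposite sides of 0 with intervals that do not reach it.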

How the data were processed

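Counts of RM82 libraries were deposited by the authors as the number of UMIs per transcript, without normalization, 1 file per library. Per the methods, the authors called bases with Guppy and mapped reads to human transcripts (hg38, Ensembl 98) with minimap2 (options -p 0.9 and -N 3), and how secondary placements were counted is not given in the sources used here. Which deduplication, homotrimer correction or UMI-tools, made these counts is not given in the sources used here. Totals lay between 362826 and 666702 per library, and an unlisted transcript was given 0.

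Transcripts were paired with genes by identifier without version in GENCODE release 44 (92.3% of identifiers) and summed to genes. Genes and transcripts were tested with edgeR 4.0.16 in R 4.3.3 (filterByExpr with a minimum count of 10 and a minimum total count of 15, TMM, quasi-likelihood F-test, Benjamini-Hochberg), with library sizes recomputed after the filter, and transcript usage with diffSpliceDGE. The scripts were tested on simulated data. The study itself used DESeq2 for differential expression, and here DESeq2 1.42.0 was an alternative. The M1 share was tested with scipy 1.17.1 in Python 3.11.15, and annotated sequences were mapped with minimap2 2.31. Sequences came from GRCh38, the build of the files. Other scalings, filters, sums and a replicate block were tried, and each library was left out in turn.

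The members and lists were chosen with earlier results of these data known. Named were all 10 genes, the tested PKM transcripts, the most abundant transcript of each other gene, called transcripts, the 6 PKM splicing regulators, the most abundant hexokinase and phosphofructokinase, the 2 smallest unadjusted p of each other list and the 3 genes most like PKM. Cell type markers, SLC2A1 and GAPDHP62 were named outside this rule. A table with 4 columns that could not be paired with samples and the reports on molecular identifiers were not used.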

Additional observations from a re-analysis of the deposited data

How the results depend on the processing

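The 9 glycolysis genes below 0 were 9 under other scalings, filters, DESeq2, protein-coding sums and added pseudogenes, 8 with the most abundant transcript of each gene (PGK1 0.019), and 7 to 10 when single libraries were left out. There, PKM ranged from -0.059 to 0.18, ENO1 from -0.27 to 0.014 and PGK1 from -0.30 to 0.10, while TPI1, GAPDH, LDHB, LDHA, ALDOA, PGAM1 and GPI stayed below 0. Of these, ALDOA ranged from -0.41 (without SGC-CLK-1 1) to -0.11 (without SGC-CLK-1 2), LDHA from -0.40 (without SGC-CLK-1 1) to -0.12 (without SGC-CLK-1 3) and GPI from -0.26 (without SGC-CLK-1 1) to -0.094 (without SGC-CLK-1 2), each over 1.5 times from its value with all libraries. DESeq2 called 3 of the 10, GAPDH (-0.47), LDHB (-0.58) and TPI1 (-0.59). Its own filter left 2395 genes. Fitted to the genes edgeR tested and without that filter, it called none of the 10. Over all genes, the 15 calls became 28 with scaling by library size alone, 169 without a filter, 64 with at least 10 counts in every library, 122 by DESeq2, 101 by DESeq2 on the genes edgeR tested, 148 with the most abundant transcript of each gene, 0 with protein-coding transcripts only, and, when single libraries were left out, 1 (without DMSO 1 or SGC-CLK-1 2) to 21 (without DMSO 2). The 310 transcript calls became 162 without a filter, 173 with at least 10 counts in every library, 115 by DESeq2 and 81 (without SGC-CLK-1 2) to 363 (without DMSO 2) when single libraries were left out. Called transcripts of the glycolysis genes numbered 0 without a filter, 1 by DESeq2 and 0 (without DMSO 1, DMSO 3, SGC-CLK-1 2 or SGC-CLK-1 3) to 5 (without SGC-CLK-1 1) when single libraries were left out. Without a filter, 1 gene of the other lists, TKT, was called.

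Whether replicate numbers pair the samples is not known. The deviations of same-numbered libraries from their group means had correlations of 0.064, 0.024 and 0.031. Libraries with different numbers were not set beside these, so the values do not settle it. With the number as a replicate block, 36 genes were called beside 15 without it, and 427 transcripts beside 310. Of the glycolysis genes, 4 transcripts were called beside 2, and none of the 10 gene sums. The block leaves the difference in M1 share at 0.717 points by arithmetic, which is no check of that difference. That difference ranged from -2.98 to 4.73 when single libraries were left out. It was 2.73 with counts pooled per group and 0.472 as a share of all PKM counts. No usage test of the glycolysis genes was called under any setting run. Values near 0 changed sign. ENO1 ENST00000234590 was 0.046 with library size alone, 0.014 with at least 10 counts, 0.0042 with the block and -0.15 to 0.18 without single libraries. PKM ENST00000567118 was 0.042, 0.0069 and 0.050 in the same settings and -0.22 to 0.41 without single libraries. RBM4 was 0.063 with library size alone, 0.0049 without a filter, 0.035 with at least 10 counts and -0.18 to 0.075 without single libraries. PGK1 ENST00000373316 was -0.023 by DESeq2. Without single libraries it ranged from -0.20 to 0.28, GPI ENST00000356487 from -0.19 to 0.0045, LDHA ENST00000422447 from -0.35 to 0.053, PKM ENST00000564440 from -0.013 to 0.38 and PKM ENST00000565184 from -0.10 to 0.39. Other values that moved by over 1.5 times were ALDOA ENST00000643777 (-0.31 to -0.028), GAPDH ENST00000229239 (-0.21 without SGC-CLK-1 2), PKM ENST00000335181 (0.086 to 0.50), PKM ENST00000389093 (-0.44 to -0.072), PTBP2 (-0.35 without DMSO 3), HNRNPA1 (-0.32 without SGC-CLK-1 2), BSG (-0.35 without SGC-CLK-1 3), MYC (0.38 without DMSO 3) and HIF1A (0.27 without SGC-CLK-1 3). The cause was not tested. Among the 10 genes, the standard error of the log2 fold change ran from 0.17 (GAPDH) to 0.24 (PGAM1, the least counted).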

Other observations

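Annotated pseudogenes of the 10 genes, whose sequences resemble their parents, took few counts. Of 104 annotated, 25 had a count and none was tested, and their summed count was 15, 34 and 17 in DMSO and 41, 23 and 22 in SGC-CLK-1. GAPDHP62 was the most abundant, with 4, 13 and 1 counts in DMSO and 15, 6 and 6 in SGC-CLK-1. The summed count of the glycolysis genes was at least 153 times that of the pseudogenes in each library, and adding pseudogene counts to their parents left the 9 genes below 0 and PKM above.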
